A study of Mus musculus with 32 samples.

Results

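The pentose phosphate pathway was described by its 8 enzyme genes, G6pdx, H6pd, Pgls, Pgd, Rpia, Rpe, Tkt and Taldo1. All probes carrying 1 of these gene names on the array were taken, and all 18 of them passed the filter on dim spots and were in the deposited value table, among 37306 probes under 24523 gene names in all. Expression was measured in interscapular brown adipose tissue of male C57BL6/J mice on 32 single-colour Agilent arrays, 8 in each of 4 groups. Total ChREBP-KO mice were Mlxipl-null and lacked both isoforms of the carbohydrate response element binding protein, a glucose-sensing transcription factor. ChREBPβ-KO mice carried a CRISPR/Cas9 deletion of the exon that is used only by the β isoform. Each knockout was compared with WT littermates of its own line, and all 4 groups had been fasted for 24 hours and then refed for 18 hours with food and 20% glucose in the water. Both deficiencies were present in every tissue of the animal, and the age of the mice was not given in the sources used here.

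The pathway takes glucose 6-phosphate away from glycolysis. Its oxidative branch produces NADPH, the reducing power for fatty acid synthesis and for glutathione recycling, and ends at ribulose 5-phosphate. Its non-oxidative branch converts pentose phosphates reversibly into glycolytic sugars and also supplies ribose 5-phosphate for nucleotides. Brown fat of refed mice makes fatty acids actively, and such tissues are known for high expression of these enzymes.

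The labelled tissue was checked first. Ucp1 and Cidea, which define brown adipocytes, had log2 intensities between 18.22 and 18.62 and between 18.02 and 18.79, and the mean of the 9 brown adipocyte markers lay between 13.78 and 14.83 on all 32 arrays. Mlxipl, measured by its brightest probe, was 5.57-fold lower in total ChREBP-KO and 2.82-fold lower in ChREBPβ-KO than in WT (limma, adjusted p = 2.02e-24 and 7.09e-17). The share of spots that were well above background lay between 64.4% and 71.1%, and 0 spots were saturated. Transcripts of other tissues varied between arrays. The mean of 9 skeletal muscle markers lay between 13.35 and 16.62 in total-line WT, 14.84 and 16.30 in total ChREBP-KO, 6.59 and 12.66 in ChREBPβ-line WT and 6.57 and 12.07 in ChREBPβ-KO, and that of 7 liver markers lay between 5.83 and 13.40 over all arrays. In bulk tissue, fewer cells of a type and less RNA per cell cannot be told apart.

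A gene was represented by its brightest probe, and the other probes were read as further measurements of the same gene. G6pdx and H6pd had 1 probe each, Rpia and Taldo1 had 2, and Pgls, Pgd, Rpe and Tkt had 3. On build mm9 the brightest probes lay at chrX:71654949-71655008 for G6pdx, chr4:149353626-149353685 for H6pd, chr8:74120108-74120166 for Pgls and chr4:148524293-148524352 for Pgd. Those of the non-oxidative branch lay at chr6:70716013-70716072 for Rpia, chr1:66766021-66766080 for Rpe, chr14:31386641-31386700 for Tkt and chr7:148588764-148588823 for Taldo1. The files give no exon or UTR for a probe. The following 3 probes are shown because each is 60 bases long but spans a longer stretch of mm9 (915 bases in Pgls, 8111 in Rpe and 175 in Taldo1), so that it crosses at least 1 intron, and because each measured its gene beside a brighter probe. All 3 lie on the plus strand.
Pgls probe A_51_P321794, chr8:74119044-74119958: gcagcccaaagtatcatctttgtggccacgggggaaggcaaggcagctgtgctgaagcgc
Rpe probe A_52_P655831, chr1:66753085-66761195: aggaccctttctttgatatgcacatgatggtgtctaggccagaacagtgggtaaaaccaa
Taldo1 probe A_65_P13883, chr7:148587650-148587824: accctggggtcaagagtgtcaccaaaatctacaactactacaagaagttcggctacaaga

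The promoters of 4 members are shown as RefSeq gives them on GRCm38.p6, from 250 bases before to 50 bases after the start of the gene. Pgd and Tkt are shown as the members of each branch with large changes at high signal, Taldo1 as a member lower in both knockouts, and Pgls as the member that rose. Capitals mark every match, on either strand, to the motifs searched.
Pgls promoter, chr8:71591934-71592233, plus strand: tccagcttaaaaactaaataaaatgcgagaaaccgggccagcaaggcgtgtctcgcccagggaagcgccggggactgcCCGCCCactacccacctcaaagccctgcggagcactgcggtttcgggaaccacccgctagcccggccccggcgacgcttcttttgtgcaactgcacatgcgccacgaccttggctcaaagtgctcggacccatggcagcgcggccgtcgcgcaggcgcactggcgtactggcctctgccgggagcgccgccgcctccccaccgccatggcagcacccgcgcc
Pgd promoter, chr4:149166656-149166955, minus strand: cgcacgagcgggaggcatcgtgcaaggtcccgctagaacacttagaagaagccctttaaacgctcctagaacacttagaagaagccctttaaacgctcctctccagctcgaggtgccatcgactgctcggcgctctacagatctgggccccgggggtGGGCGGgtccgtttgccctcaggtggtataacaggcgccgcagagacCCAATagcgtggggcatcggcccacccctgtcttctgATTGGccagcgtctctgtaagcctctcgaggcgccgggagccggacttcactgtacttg
Tkt promoter, chr14:30548881-30549180, plus strand: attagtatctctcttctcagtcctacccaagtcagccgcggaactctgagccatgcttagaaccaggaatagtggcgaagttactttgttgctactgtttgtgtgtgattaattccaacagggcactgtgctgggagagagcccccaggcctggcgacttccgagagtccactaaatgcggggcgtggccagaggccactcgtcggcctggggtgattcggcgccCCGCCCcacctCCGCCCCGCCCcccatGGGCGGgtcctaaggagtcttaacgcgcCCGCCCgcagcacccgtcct
Taldo1 promoter, chr7:141391910-141392209, plus strand: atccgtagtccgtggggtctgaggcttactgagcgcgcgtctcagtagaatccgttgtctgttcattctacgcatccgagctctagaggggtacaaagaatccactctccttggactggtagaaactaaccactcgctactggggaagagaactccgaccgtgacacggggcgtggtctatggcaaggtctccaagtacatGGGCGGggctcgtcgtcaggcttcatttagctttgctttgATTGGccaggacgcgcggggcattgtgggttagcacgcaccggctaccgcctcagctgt
The motifs searched on both strands were the E-box CACGTG, the antioxidant response element TGACNNNGC, the CCAAT box CCAAT, the GC box GGGCGG, the sterol response element TCACNCCAC and the carbohydrate response element consensus, a spaced pair of E-box-like motifs. All 8 members had a promoter in the table, and Pgd had 2, of which the first was used. The GC box was found in 7 of the 8 promoters, all but that of H6pd, against 35.7% of all 32851 promoters. The bases of these 7 promoters were 56.7% to 67.3% G or C, and those of the H6pd promoter 39.3%. The part of base composition in this count was not tested. The Tkt promoter held 5 GC box matches, a neighbouring pair of which shared a base. The CCAAT box was found in 4 of 8 (H6pd, Pgd, Rpe and Taldo1) against 37.4% of all promoters. In both Pgd and Taldo1 a CCAAT match on the minus strand began 9 bases before the start. The antioxidant response element was found in 1 of 8, that of G6pdx, against 12.4% of all promoters. The E-box, the sterol response element and the carbohydrate response element consensus were found in 0 of 8, and in 7.15%, 1.24% and 0.0274% of all promoters. The letters of these motifs are thus not in these windows, which says nothing of sites farther away.

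Loss of both ChREBP isoforms changed most of the pathway. In total ChREBP-KO against WT, 7 of the 8 genes passed the test (limma, adjusted p under 0.05), 6 lower and 1 higher. Over all 24523 genes 44.1% were called in this comparison, 21.1% lower and 22.9% higher. The median log2 change of the 8 members was -0.80, with a range from -1.71 to 0.55, beside a median of 0.01 over all genes. Markers moved with this comparison. Of the brown adipocyte markers 6 of 9 were called, 2 lower and 4 higher, and 1 of 7 liver markers was called higher. All 3 macrophage markers were called lower, with list means between 9.55 and 10.41 in WT and between 9.16 and 9.58 in KO, and the part of these markers in the result was not tested. When the liver and muscle means entered the fit as covariates, 7 of the 8 genes were again called.

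In the oxidative branch, all 4 genes were called. G6pdx encodes glucose 6-phosphate dehydrogenase, the entry enzyme of the cytosolic pathway. Its log2 intensity was lowest at 15.38, with a median of 15.55 and a highest value of 15.65, in WT, and 14.97, 15.13 and 15.45 in total ChREBP-KO. The groups overlapped slightly, since 7 of the 8 KO arrays lay below every WT array. The change was -0.36 ± 0.074 on the log2 scale (SE, n = 8 per group, limma adjusted p = 0.000159), a fall that was the smallest among the called members.

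H6pd encodes the dehydrogenase of the endoplasmic reticulum, which feeds NADPH to steroid reduction in that compartment. Its lowest, median and highest log2 intensities were 13.23, 13.37 and 13.61 in WT and 12.45, 12.71 and 12.92 in total ChREBP-KO. Every KO array lay below every WT array. H6pd fell by 37.9%, a log2 change of -0.69 ± 0.071 (limma adjusted p = 1.5e-09).

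Pgls, the lactonase that acts between the 2 dehydrogenases, moved the opposite way. Its lowest, median and highest values were 15.33, 15.40 and 15.77 in WT and 15.91, 16.04 and 16.18 in total ChREBP-KO, so that all 8 KO arrays lay above every WT array. Pgls rose by 45.9% (log2 change 0.55 ± 0.064, limma adjusted p = 2.46e-08). The probe printed above, which reads across a splice junction of Pgls, rose by 0.60 ± 0.076 and a dimmer probe by 0.30 ± 0.094 on the log2 scale, both called.

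Pgd encodes 6-phosphogluconate dehydrogenase, the last and irreversible NADPH-producing step. Its lowest, median and highest values were 15.64, 15.71 and 16.002 in WT and 13.83, 14.01 and 14.44 in total ChREBP-KO. The groups were far apart, and Pgd was 3.21-fold lower (log2 change -1.68 ± 0.092, limma adjusted p = 5.07e-16). Its other probes were dim, with means over all arrays of 6.59 and 5.41, and changed by -0.91 and -0.21, both called lower. The dimmer of them was well above background on 6 of 8 WT arrays and 5 of 8 KO arrays of this line.

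In the non-oxidative branch, 3 of 4 genes were called, all lower. Rpia, the isomerase that makes ribose 5-phosphate, had lowest, median and highest values of 10.57, 10.76 and 10.94 in WT and 8.78, 9.07 and 9.25 in total ChREBP-KO. No array of one group came near the other. The change was -1.71 ± 0.107 (limma adjusted p = 1.6e-14), or 3.27-fold lower, and the other Rpia probe changed by -0.74.

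Rpe, the epimerase that makes xylulose 5-phosphate from the same substrate, was not called by its brightest probe. Its values ran from 10.54 to 11.04 in WT and from 10.77 to 10.96 in total ChREBP-KO, and the log2 change was 0.00 with a 95% interval from -0.13 to 0.14 (limma adjusted p = 0.976). The other Rpe probes, including the printed one that spans 8111 bases, were both called higher, by 0.22 ± 0.052 and 0.24 ± 0.049. The probes of Rpe thus disagreed on the call, and none of them fell.

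Tkt encodes transketolase, which moves carbon units between sugar phosphates and links the pathway back to glycolysis. Its lowest, median and highest values were 17.92, 18.08 and 18.11 in WT and 16.58, 16.73 and 16.80 in total ChREBP-KO. The groups were separated by more than the range within either. Tkt was 2.49-fold lower (log2 change -1.32 ± 0.045, limma adjusted p = 2e-21). A dim Tkt probe, with a mean of 7.15 over all arrays, changed by -1.44 ± 0.193, and another, with a mean of 6.20 over all arrays, changed by -0.14 and was not called (limma adjusted p = 0.0691).

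Taldo1 encodes transaldolase, the partner of transketolase in the same branch. Its values ran from 17.37 to 17.52 in WT and from 16.42 to 16.68 in total ChREBP-KO, with no overlap. It fell by 46.8% (log2 change -0.91 ± 0.042, limma adjusted p = 6.91e-18), and the printed junction probe fell further, by 1.19 on the log2 scale. An exact two-sided permutation test over all 12870 splits of the 16 arrays gave p = 0.000155, the smallest that these splits allow, for H6pd, Pgls, Pgd, Rpia, Tkt and Taldo1, and p = 0.000622 for G6pdx. Within each of the 4 wash batches the change of Tkt lay between -1.43 and -1.21, that of Taldo1 between -0.97 and -0.86, that of Pgd between -1.87 and -1.50 and that of Pgls between 0.35 and 0.64. Each batch held only 1 to 3 KO arrays and 2 WT arrays of this line.

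**Figure D1:**
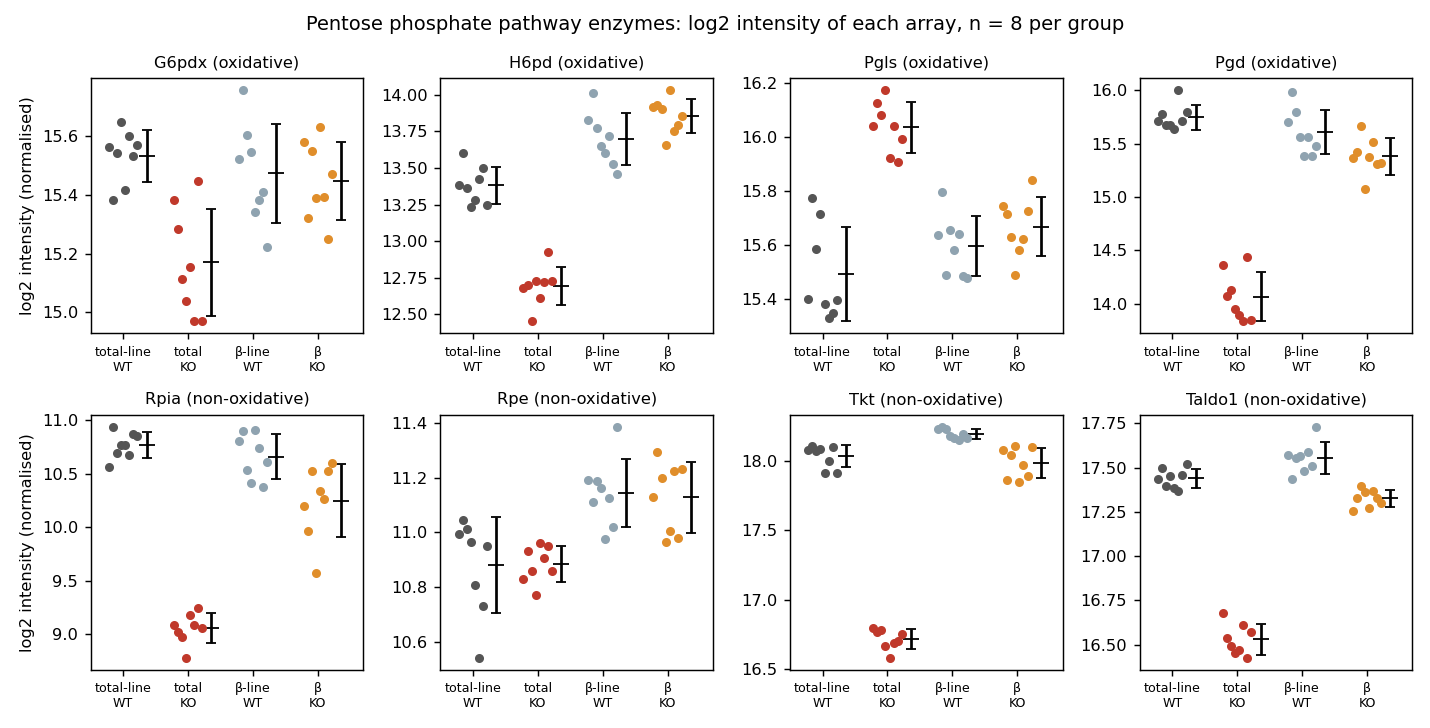
Log2 intensity of the brightest probe of each enzyme (y axis, a separate scale for each panel) on each of the 8 arrays of the 4 groups, with the group mean and SD beside the points. In total ChREBP-KO the points lie below those of WT for G6pdx, H6pd, Pgd, Rpia, Tkt and Taldo1 (in G6pdx with some overlap) and above them for Pgls, while the ChREBPβ-KO points are separated from their WT points in Tkt and Taldo1.

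Lack of ChREBPβ alone moved 3 of the 4 non-oxidative genes past the test. In ChREBPβ-KO against WT, 3 of the 8 genes were called, Rpia, Tkt and Taldo1, all lower. Over all genes 2.70% were called in this comparison, 1.33% lower and 1.37% higher. In the oxidative branch 0 of 4 genes were called by limma, while 2 of the 4, H6pd and Pgd, had an unadjusted p under 0.05. The median log2 change of the 8 members was -0.12, beside -0.003 over all genes. When slide was a fixed block, 0 of the 8 genes were called and 3 had an unadjusted p under 0.05. Limma called 0 genes of any marker list here, and 4 of 9 brown adipocyte markers and 1 of 5 white adipose markers had an unadjusted p under 0.05. With the liver and muscle list means as covariates, 3 of the 8 genes were again called.

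Tkt ranged from 18.16 to 18.25 with a median of 18.19 in ChREBPβ-line WT and from 17.85 to 18.11 with a median of 18.01 in ChREBPβ-KO. All 8 KO arrays lay below every WT array. The change was small, -0.21 ± 0.045 on the log2 scale or a fall of 13.5% (limma adjusted p = 0.00602, exact permutation p = 0.000155). Within the wash batches, each with only 1 to 3 KO and 1 to 3 WT arrays of this line, it lay between -0.26 and -0.15. It was not called when intensities were scaled to the 75th percentile of each array in place of quantile normalisation (log2 change -0.18, limma adjusted p = 0.157).

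The dim Tkt probe at chr14:31375465-31375524 (mm9) changed more than the bright one in this comparison. Its log2 intensity ran from 7.71 to 9.16 in ChREBPβ-line WT and from 6.55 to 8.48 in ChREBPβ-KO, with 6 of 8 KO arrays below every WT array. The change was -1.05 ± 0.193 (limma adjusted p = 0.00154). This probe also differed between the WT groups, by 1.53 ± 0.193, and was well above background on 6 of 8 arrays in each ChREBPβ-line group.

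Taldo1 ranged from 17.43 to 17.73 with a median of 17.56 in ChREBPβ-line WT and from 17.25 to 17.40 with a median of 17.33 in ChREBPβ-KO, again with no overlap. It changed by -0.23 ± 0.042 on the log2 scale (limma adjusted p = 0.00153, exact permutation p = 0.000155). Its junction probe changed by -0.21 ± 0.057 (limma adjusted p = 0.0374), with 4 of 8 KO arrays below every WT array. Within the wash batches, with as few arrays as for Tkt, the change of Taldo1 lay between -0.23 and -0.13.

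Rpia was more variable in this line. Its lowest, median and highest values were 10.38, 10.67 and 10.91 in WT and 9.57, 10.30 and 10.60 in ChREBPβ-KO. The groups overlapped, with 5 of 8 KO arrays below every WT array. The change was -0.41 ± 0.107 (limma adjusted p = 0.0293), with the SE taken from the spread in all 4 groups. With only the groups compared in the fit, the SE was 0.132 and Rpia was not called (limma adjusted p = 0.157). Nor was it called with wash batch as a fixed block (log2 change -0.39, limma adjusted p = 0.0575). The call was lost when any 1 of 5 arrays was left out: without ChREBPβ-KO replicate 4, the lowest array, the change was -0.32 (limma adjusted p = 0.0645), and without ChREBPβ-KO replicate 2 or ChREBPβ-line WT replicate 1, 2 or 6 it was -0.37, -0.39, -0.38 and -0.40 (limma adjusted p = 0.0648, 0.062, 0.0713 and 0.059). Within the wash batches it lay between -1.01 and 0.11. The value of -1.01 came from 2 KO arrays, with replicate 4 among them, and 1 WT array, replicate 2. The value of 0.11 came from 3 KO arrays and 1 WT array. The dimmer Rpia probe changed by -0.37 and just missed the threshold (limma adjusted p = 0.0512), although its 8 KO arrays all lay below every WT array.

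None of the oxidative enzymes was called between ChREBPβ-KO and WT by its brightest probe, although the change of Pgd was of a size like those of Tkt and Taldo1. G6pdx ran from 15.22 to 15.76 in WT and from 15.25 to 15.63 in KO, and its log2 change was -0.03 with a 95% interval from -0.18 to 0.13 (limma adjusted p = 0.947). Pgls changed by 0.07 (interval -0.06 to 0.20, limma adjusted p = 0.716) and H6pd by 0.16 (interval 0.01 to 0.30, limma adjusted p = 0.298). Pgd ran from 15.38 to 15.98 in WT and from 15.07 to 15.67 in KO, with 5 of 8 KO arrays below every WT array, and its change was -0.23 ± 0.092 (limma adjusted p = 0.229). Its dim probes changed by -0.41 ± 0.127 and -0.15 ± 0.072, neither called (limma adjusted p = 0.0806 and 0.357). Each Pgd probe had an unadjusted limma p under 0.05. The dimmest was well above background on only 4 of 8 WT arrays of this line. The Pgd value was called when Agilent's processed signal was used (log2 change -0.29, limma adjusted p = 0.0452) and when the probes of the gene were averaged (-0.26, limma adjusted p = 0.0499). With the processed signal, scaled to the 75th percentile, 3 of the 8 genes were called, with Pgd in place of Tkt. Tkt changed there by -0.18 (limma adjusted p = 0.182), so that the split between the branches depended on the processing. Rpe changed by -0.02 (interval -0.15 to 0.12). ChREBPβ-KO replicate 4 was the lowest array of its group for 5 of the 8 genes, and ChREBPβ-line WT replicate 2 was the highest of its group for 5 of 8.

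**Figure D2:**
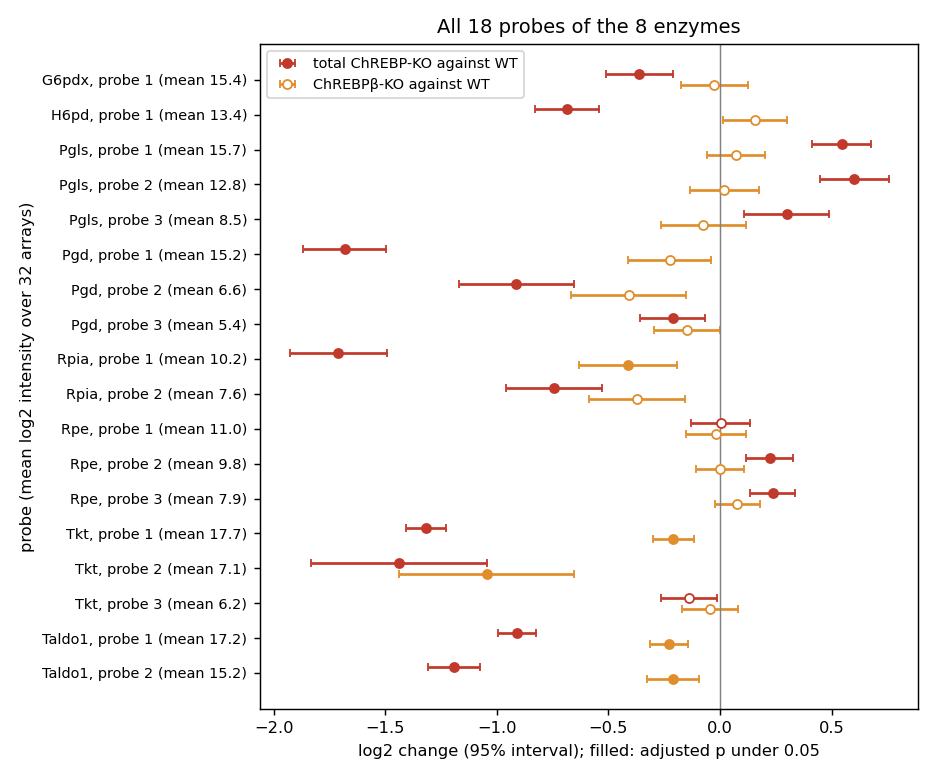
Log2 change (x axis) with its 95% interval for each of the 18 probes of the 8 enzymes, ordered within a gene from bright to dim, in total ChREBP-KO (red) and ChREBPβ-KO (orange) against their WT groups; filled points had an adjusted p under 0.05. The 3 Pgls probes lie to the right of 0 and the 3 Pgd probes to the left in total ChREBP-KO, and the ChREBPβ-KO points lie between -1.05, in a dim Tkt probe, and 0.16, in H6pd.

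The effects of the 2 knockouts were compared directly. In the difference between them, the ChREBPβ-KO effect minus the total ChREBP-KO effect, 7 of the 8 genes were called, where 25.2% of all genes were. The difference was 1.46 ± 0.130 for Pgd, 1.30 ± 0.151 for Rpia, 1.11 ± 0.063 for Tkt, 0.84 ± 0.10 for H6pd, 0.68 ± 0.059 for Taldo1 and 0.34 ± 0.104 for G6pdx on the log2 scale. Each of these had a less negative change in ChREBPβ-KO than in total ChREBP-KO, or in H6pd a positive one that was not called. Each effect was taken within its own line, so that missing isoform and line cannot be told apart in this difference. For Pgls the difference was -0.47 ± 0.091. Limma adjusted p values of these 7 lay between 7.63e-15 for Tkt and 0.0174 for G6pdx. Rpe was not called (difference -0.02, interval -0.21 to 0.17). The call depended on the probe in some genes. A dimmer Rpe probe was called, with a difference of -0.22 ± 0.074 (limma adjusted p = 0.0264). The dim Tkt probe differed by 0.39 ± 0.273 (limma adjusted p = 0.33), the dimmer Rpia probe by 0.37 ± 0.149 (limma adjusted p = 0.0668) and the dimmest Pgd probe by 0.06 ± 0.101 (limma adjusted p = 0.711), none of them called.

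The WT groups of the 2 lines also differed. In ChREBPβ-line WT against total-line WT, 4 of the 8 genes were called, all higher, where 38.9% of all genes were called and 24.8% higher. H6pd was higher by 0.32 ± 0.071, Rpe by 0.26 ± 0.065, Tkt by 0.16 ± 0.045 and Taldo1 by 0.12 ± 0.042 on the log2 scale. The Tkt arrays of the WT groups did not overlap, whereas for Taldo1 5 of 8 arrays lay above every total-line WT array. Probes disagreed here too, since the dimmer Rpia probe was higher by 0.57 ± 0.106 while the brightest differed by -0.11 ± 0.107. All 9 skeletal muscle markers were called lower in ChREBPβ-line WT, with a median log2 difference of -6.27. Other lists moved as well, with 3 of 3 macrophage markers lower, 7 of 9 brown adipocyte markers called (4 lower, 3 higher), 3 of 5 of white adipose tissue, 2 of 3 of blood, 2 of 3 of lymphocytes and 1 of 7 of liver, and their part in the result was not tested. With the liver and muscle list means as covariates, 0 of the 8 genes were called by limma and 1 had an unadjusted p under 0.05, and the differences of these 4 genes were 0.34, 0.21, 0.13 and 0.12. Line and muscle content cannot be told apart between the WT groups.

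The branches were compared by description only. In total ChREBP-KO the median log2 change was -0.52 over the 4 oxidative genes and -1.11 over the 4 non-oxidative genes. In ChREBPβ-KO the medians were 0.02 and -0.22. Each gene was then centred on its mean over the 32 arrays and averaged within its branch on each array. The oxidative mean had a median of 0.10 in total-line WT, -0.47 in total ChREBP-KO, 0.16 in ChREBPβ-line WT and 0.18 in ChREBPβ-KO. The non-oxidative mean had medians of 0.26, -0.72, 0.36 and 0.14 in the same order. The non-oxidative means ran from 0.24 to 0.44 in ChREBPβ-line WT and from -0.03 to 0.27 in ChREBPβ-KO, which overlapped slightly, whereas the oxidative means of these groups overlapped widely, from -0.02 to 0.46 and from -0.03 to 0.26. The oxidative minus the non-oxidative mean was 0.30 ± 0.11 (SD, n = 8) in total ChREBP-KO and -0.14 ± 0.08 in its WT group. In ChREBPβ-KO it was 0.02 ± 0.08 and in its WT group -0.19 ± 0.15. Neither branch moved as 1 block, since Pgls rose in the oxidative branch and Rpe was not called in the non-oxidative branch.

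**Figure D3:**
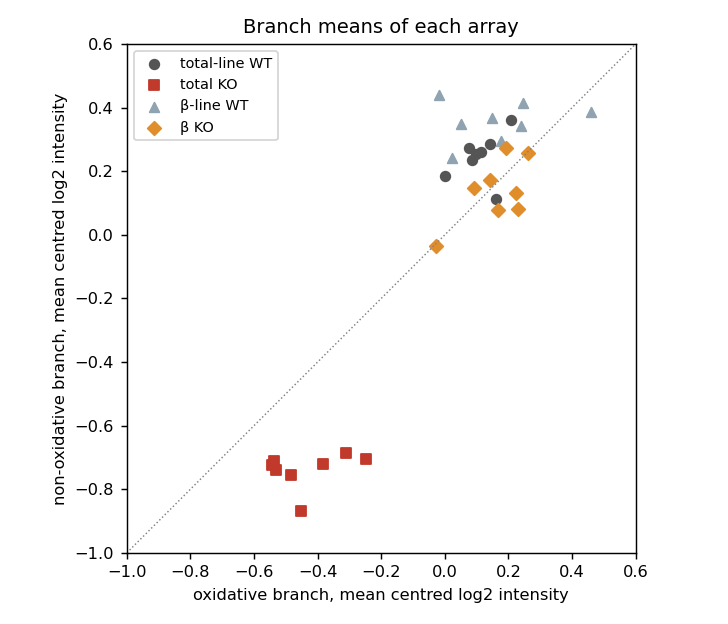
Mean centred log2 intensity of the 4 oxidative genes (x axis) against that of the 4 non-oxidative genes (y axis), with 1 point for each of the 32 arrays and a dotted line where both are equal. The 8 total ChREBP-KO arrays lie apart at -0.87 to -0.69 on the y axis, and the ChREBPβ-KO arrays lie at -0.03 to 0.27 on the y axis, below most ChREBPβ-line WT arrays (0.24 to 0.44), and within their range or close to it on the x axis.

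Genes on either side of the pathway were described from lists of general knowledge, chosen with earlier results of these data known. Their counts stand beside the shares over all genes as description only. Of 19 genes that feed it or use its sugar phosphates, 16 were tested, and Tktl1, Tktl2 and Prps1l1 had no probe that passed the filter. In total ChREBP-KO 10 of the 16 were called, 9 lower and 1 higher, with a median change of -0.40, where 44.1% of all genes were called, 21.1% lower, and their median was 0.01. Hk2, a hexokinase that supplies glucose 6-phosphate, changed by -1.94 ± 0.069 and Gpi1, the isomerase at the branch point with glycolysis, by -1.12 ± 0.060. Hk1, another hexokinase, was not called (log2 change -0.12, limma adjusted p = 0.322), with a WT mean of 15.46 beside 14.97 for Hk2. Xylb, which phosphorylates xylulose, changed by -0.90, Rbks, the ribokinase, by -0.85, and Tigar, a phosphatase that favours the pathway over glycolysis, by -0.66. Shpk, which phosphorylates sedoheptulose, changed by -0.53, Hk3 by -0.52, Prps2, a ribose phosphate pyrophosphokinase, by -0.42 and its associated protein Prpsap2 by -0.38. Idnk, a gluconokinase, was the gene called higher, by 0.17. In ChREBPβ-KO 2 of the 16 were called, both lower, against 2.70% of all genes. These were Rbks (-0.50 ± 0.123, limma adjusted p = 0.018) and Gpi1 (-0.30 ± 0.060, limma adjusted p = 0.00357). Prps1, which makes the ribose phosphate precursor of nucleotides and is named because it stands apart in the plot of linked genes, was not called. Its change of 0.71 in ChREBPβ-KO had an SE of 0.588 and came with a lowest value of 4.15 in ChREBPβ-line WT, while the group medians were 11.06 in WT and 10.97 in KO.

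Other enzymes that make NADPH did not move together. Of 9 tested, 5 were called in total ChREBP-KO, 2 lower and 3 higher, with a median change of 0.06, where 44.1% of all genes were called and their median was 0.01. Me1, the cytosolic malic enzyme, was 5.91-fold lower (log2 change -2.56 ± 0.121), further than any of the 8 pathway enzymes, and Mthfd2l, a mitochondrial folate enzyme, changed by -0.36. Idh2, the mitochondrial NADP-dependent isocitrate dehydrogenase, rose by 1.14 ± 0.072, Aldh1l1, a cytosolic folate dehydrogenase, by 1.08 ± 0.139 and Mthfd1, a cytosolic folate enzyme, by 0.50 ± 0.059. Idh1, the cytosolic counterpart of Idh2, changed by 0.06 and was not called. In ChREBPβ-KO 1 of 9 was called, Idh2, against 2.70% of all genes. Idh2 rose there by 0.49 ± 0.072 (limma adjusted p = 9.02e-05). Me1 changed by -0.34 in that comparison and was not called (limma adjusted p = 0.148). Nnt, the mitochondrial transhydrogenase, changed by -0.18 and -0.13 in total ChREBP-KO and ChREBPβ-KO, neither called. It differed between the lines, by -1.43 ± 0.17 in ChREBPβ-line WT against total-line WT (limma adjusted p = 4.96e-08), where 38.9% of all genes were called.

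Of 7 reductases that use NADPH, 3 were called in total ChREBP-KO, a share near the 44.1% of all genes. Gsr, glutathione reductase, changed by -0.57 ± 0.080 and Txnrd2, the mitochondrial thioredoxin reductase, by -0.15 ± 0.055, both lower. Blvrb, biliverdin reductase B, rose by 0.47 ± 0.078. In ChREBPβ-KO 0 of 7 were called by limma, and 2 had an unadjusted p under 0.05.

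**Figure D4:**
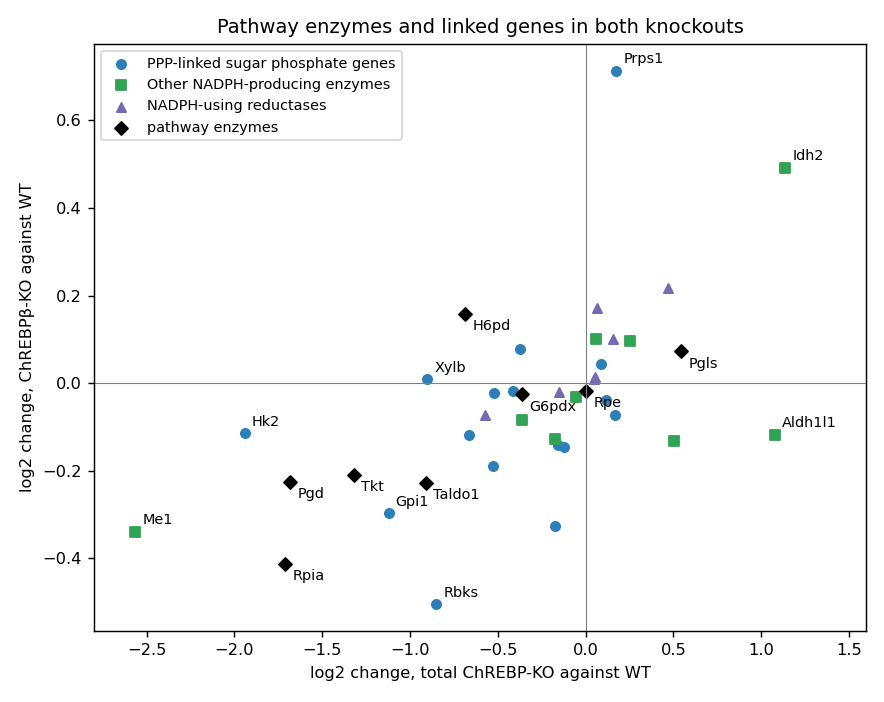
Log2 change in total ChREBP-KO (x axis) against that in ChREBPβ-KO (y axis) for the 8 pathway enzymes (black) and the genes of the 3 linked lists, 1 point a gene. Me1 lies at -2.56 and Hk2 at -1.94 on the x axis, beyond the lowest pathway enzyme, Rpia at -1.71, Idh2 lies at the upper right, and the y axis spans a smaller range than the x axis.

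The genes most like 4 of the members over the 32 arrays were found by the root mean square difference of log2 intensities, each gene centred on its own mean, among 15323 genes with a symbol. Nearest to Pgd were Sept9, Dhrs7 and Sc5d, with differences of 0.191, 0.191 and 0.194 beside an SD of 0.702 for Pgd itself. Nearest to Tkt were Rere, Phlda3 and Smagp, at 0.13, 0.143 and 0.153 beside an SD of 0.607. Nearest to Taldo1 were Eno1b, Eno1 and Pdha1, at 0.0999, 0.105 and 0.133 beside an SD of 0.414. Eno1b is a near-identical copy of the enolase gene Eno1, so that their probes may read the same RNA, and Pdha1 encodes a subunit of pyruvate dehydrogenase. Nearest to G6pdx were Emc4, Tmem230 and Scrn3, at 0.119 to 0.125 beside an SD of 0.199, so that the likeness of G6pdx to any gene was weaker in proportion. The changes of these neighbours, whose direction the choice by pattern fixes, lay between -1.93 and -0.26 in total ChREBP-KO and between -0.47 and -0.04 in ChREBPβ-KO.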

How the data were processed

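Brown adipose tissue RNA, labelled with Cy3, was measured on 32 Agilent arrays read with Feature Extraction 10.10.1.1 per the file headers. The deposited scanner files hold the median intensity of each spot, not normalised between arrays. The authors also deposited log2 values, described in their methods as filtered and quantile normalised, with the median taken of replicated probes. That procedure was repeated here from the scanner files. A spot was kept when it passed the quality weights in 26 or more of the 32 arrays, or in 6 or more arrays of any group, as did 39985 of 59305 spots. The resulting 37306 probes differed from the deposited table by 0.00298 on the log2 scale on average.

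Each probe was fitted with limma 3.58.1 (R 4.3.3) over all 32 arrays with 4 group means. The two-sided p values were corrected for all probes after Benjamini and Hochberg, with adjusted values under 0.05 taken as called. The brightest probe stood for its gene. For single genes, the exact two-sided permutation test used every split of 8 against 8 arrays. Arrays have no read depth, and their number limits the precision. The fit was tested on simulated data with independent noise. These data held no slide, batch or line effects, so that the test does not bear on such effects.

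Members and gene lists were chosen with earlier results of these data known. Of the linked lists, the genes called in a knockout (up to 10 a list) and Me1, Idh1 and Nnt were named, and for G6pdx, Pgd, Tkt and Taldo1 the 3 genes nearest in pattern. Prps1 and Hk1 were named after their values were seen. Another gene of the linked lists is not reported here. Marker lists also covered white adipose tissue, blood and lymphocytes, of which 1 of 5, 0 of 3 and 1 of 3 genes were called by limma in total ChREBP-KO, with an unadjusted p under 0.05 for 2 of the 3 blood genes. Alternatives were other background corrections, scalings and filters, the deposited table, wash batch, slide or replicate number as a block, array weights, other moderation, only the groups compared, tissue covariates, averaged probes, a stricter threshold and leaving out each array.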

Additional observations from a re-analysis of the deposited data

Results flagged for a closer look

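In the 32 sets of 8 arrays tested (8 genes in 4 groups), 1 had an array far from the others. Pgd in total-line WT was 16.002 on replicate 6, where the next array was at 15.795, and the gap was 0.565 of the whole range, above the critical value of Dixon's test. Chance alone gives about 1 such array in 20 sets.

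The effects of the 2 knockouts differed by limma's test of the difference (ChREBPβ-KO effect minus total ChREBP-KO effect, log2 scale) in 7 members, by 0.34 for G6pdx, 0.84 for H6pd, -0.47 for Pgls, 1.46 for Pgd, 1.30 for Rpia, 1.11 for Tkt and 0.68 for Taldo1. The same test was passed by 14 linked genes. Among the sugar phosphate genes the difference was 1.83 for Hk2, 0.91 for Xylb, 0.83 for Gpi1, 0.55 for Tigar, 0.50 for Hk3, 0.45 for Prpsap2, 0.40 for Prps2 and -0.24 for Idnk. Among the enzymes that make NADPH it was 2.23 for Me1, 0.28 for Mthfd2l, -0.65 for Idh2, -0.63 for Mthfd1 and -1.20 for Aldh1l1. Among the reductases it was 0.50 for Gsr.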

How the results depend on the processing

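All 7 calls of members in total ChREBP-KO and all 7 in the difference between the knockouts were kept under all 47 alternatives at the same threshold. In ChREBPβ-KO, Taldo1 was called in 46 of 47, Tkt in 44 and Rpia in 39, with limma adjusted p from 0.000377 to 0.233, 0.00149 to 0.182 and 0.00805 to 0.548. At a threshold of 0.01, 7 members were called in total ChREBP-KO, 2 in ChREBPβ-KO, 6 in the difference and 3 between the WT groups. With slide as a fixed block, limma called 0 members in ChREBPβ-KO, where 3 had an unadjusted p under 0.05, and the changes of Rpia, Tkt and Taldo1 were -0.24, -0.21 and -0.19 (limma adjusted p = 0.548, 0.16 and 0.233). Between the WT groups, 0 members were called with the liver and muscle covariates, and Taldo1 was not called in 10 of 46 alternatives. The non-oxidative median in total ChREBP-KO was -1.20 with median intensities scaled to the 75th percentile and -1.01 with averaged probes, which gave -0.31 in ChREBPβ-KO. Averaging probes also turned Rpia between the WT groups to 0.23 (limma adjusted p = 0.0319), and added the calls of Rpe in total ChREBP-KO (0.15, limma adjusted p = 0.00369), of Pgd in ChREBPβ-KO (-0.26, limma adjusted p = 0.0499) and of Pgls between the WT groups (0.26, limma adjusted p = 0.000813). In these cases the cause was not tested. Over all 37306 probes, 953 were called in ChREBPβ-KO, 476 when fitted with its own groups only, 148 with slide as a fixed block and 1554 without ChREBPβ-line WT replicate 5. Between the WT groups 14626 probes were called, and 5395 with the liver and muscle covariates. With only probes well above background on all arrays, which are fewer, 8350 were called there, and 10068 in total ChREBP-KO in place of 16128. With 1 array left out, 2 to 3 members were called in ChREBPβ-KO, 3 to 4 between the WT groups and 7 in the other comparisons.

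The replicate numbers were checked as a possible pairing of the arrays. In the total line, same-numbered arrays had correlations of their deviations over 0.1 in 0 of 8 pairs, and 0 KO arrays correlated best with their own number. In the ChREBPβ line the correlations were over 0.1 in 6 of 8 pairs, up to 0.532, but only 1 KO array correlated best with its own number. Whether the numbers pair the arrays of the ChREBPβ line was thus not settled. With the replicate block, 7 members were called in total ChREBP-KO, 3 in ChREBPβ-KO and 7 in the difference, with no call changed. The block could not be fitted between the WT groups, since the numbers lie within a line.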
